A study of Mus musculus with 41 samples.

Results

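The 28 genes described here encode enzymes and regulators of cholesterol and fatty acid synthesis, and they were chosen by name. They comprise 7 genes of the mevalonate pathway (Acat2, Hmgcs1, Mvk, Pmvk, Mvd, Idi1 and Fdps), 11 genes of the steps that lead on to cholesterol (Fdft1, Sqle, Lss, Cyp51, Tm7sf2, Msmo1, Nsdhl, Hsd17b7, Ebp, Sc5d and Dhcr7), 6 genes of fatty acid synthesis (Acly, Acaca, Fasn, Elovl6, Scd1 and Scd2) and 4 regulators or carriers (Insig1, Srebf1, Srebf2 and Stard4). All 28 were found among the 23420 genes of the bulk table, Msmo1 under its older symbol Sc4mol, and among the 19221 genes of the single-cell table. The samples came from female BALB/cJ wild-type mice. For the bulk libraries, KLRG1+ ILC2s, the group 2 innate lymphoid cells, were sorted from the small intestine at an age of 8 weeks. Each culture held 250 of them for 3 hours in medium with 100 ng/ml of IL-7 and as much IL-2. To these cultures were added IL-25 (100 ng/ml) with α-CGRP (0.4 μg/ml, 3 libraries), IL-25 alone (3 libraries), α-CGRP alone (4 libraries) or nothing (base medium, 3 libraries). The single-cell libraries came from 10-week-old mice in which ovalbumin had provoked an inflammatory reaction, which the labels call food allergy, and from control mice labelled wild type. There were 10 food allergy and 10 control samples of Peyer's patches, and 3 food allergy and 3 control samples of a lamina propria fraction that the labels name nonTB and do not define further. A further lamina propria fraction, named IgDLow, had 1 sample per condition.

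Cholesterol and fatty acids are both built from acetyl-CoA in the cytosol. SREBP transcription factors, encoded by Srebf1 and Srebf2, are held in the endoplasmic reticulum by INSIG proteins while sterols are plentiful, and are carried to the Golgi and cut free when sterols are scarce. The released factors then raise transcription of most of the enzymes listed above, with SREBP-2 acting mainly on sterol genes and SREBP-1 mainly on fatty acid genes. In lymphocytes this programme is best known for supplying membrane during activation and division, and IL-25 is an epithelial alarm cytokine that activates ILC2s, whereas CGRP is a neuropeptide made by sensory neurons and also by some ILC2s.

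The bulk libraries held 6942764 to 21551901 expected counts each, of which the pre-ribosomal transcript Rn45s took 57.5% to 78.7%. The lowest shares were in cultures with CGRP alone, 57.5% in replicate 2 and 59.0% in replicate 3. Replicates 1 and 4 of that group had 69.1% and 71.7%, and base medium had 69.9% to 77.4%. All 11 ILC2 markers had counts in every culture group. The single-cell matrix held 58067 cells, 27344 of food allergy and 30723 of control mice, in 27 of the 28 samples. Median depth per library was 1829 to 3907 UMIs (unique molecular identifiers, which count original RNA molecules) in food allergy and 1888 to 3975 UMIs in control mice. Of 55713 different barcodes 2180 occurred in more than 1 library, and no pair of libraries shared more than 64. Cells were placed in 19 classes from markers that include none of the 28 genes, and 49606 cells (85.4%) received a class. Nearly all markers were highest in their own class, except that 2 of 6 were in cDC2-like, 4 of 7 in B cell-like, 7 of 9 in T cell-like and 7 of 9 in plasma cell-like cells. Since the same markers placed the cells, these counts are no independent check of the classes. Peyer's patch values are sums over all libraries of 1 run date and condition. In run dates 1 and 2 these pool locations lettered D, I and J in the labels, and the food allergy sum of run date 1 lacks location D, whose sample had no cells, so location and condition are unbalanced there. The lamina propria values are per library. Levels are counts per 1000000 (CPM), and a class is called X-like because the names are rebuilt from the counts.

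In cultured ILC2s, 2 of the 6 fatty acid synthesis genes fell with CGRP, Acaca and Fasn. Acaca, the acetyl-CoA carboxylase that makes malonyl-CoA in the committed step of fatty acid synthesis (chromosome 11, 84129672 to 84401651, GRCm38), had 2.79, 1.08, 0.94 and 3.17 CPM in CGRP cultures, against 9.97, 7.46 and 6.42 CPM in base medium. The highest CGRP library lay below the lowest base medium library. Acaca fell by 1.99 ± 0.46 (SE) on the log2 scale, with an adjusted p of 0.0251 in edgeR's quasi-likelihood test. Fasn, the fatty acid synthase that elongates malonyl-CoA to palmitate (chromosome 11, 120805846 to 120824547), had 22.6, 33.0, 17.1 and 24.1 CPM in CGRP cultures, against 67.2, 57.5 and 42.1 CPM in base medium. Its groups did not overlap either, and Fasn fell by 1.20 ± 0.31 on the log2 scale (adjusted p = 0.0466). These were the only 2 of the 28 genes called in this contrast, both lower, while 1.49% of the 12355 genes tested were called in either direction and 0.405% were called lower. Either call rests on few libraries: Acaca missed the threshold in 4 of 13 fits that left out 1 library, and Fasn in 9 of 13.

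The other fatty acid genes were not called. Acly, which makes cytosolic acetyl-CoA from citrate, had 15.4, 12.8, 14.9 and 15.6 CPM in CGRP cultures, against 20.8, 26.5 and 21.8 CPM in base medium (log2 fold change −0.65 ± 0.32, adjusted p = 0.404). Its groups did not overlap, although the difference missed the threshold, and the share of all genes without overlap was not counted. Elovl6, which lengthens palmitate, had a log2 fold change of 0.90 ± 0.59 (adjusted p = 0.578), and the desaturase genes Scd1 and Scd2 had −0.69 ± 1.55 and −0.61 ± 0.61. Summed over the 6 genes, fatty acid synthesis transcripts reached 54.0 ± 9.7 CPM in CGRP cultures (SD, n = 4) and 97.5 ± 12.5 CPM in base medium (SD, n = 3). In bulk samples fewer cells of a type and less RNA per cell cannot be told apart.

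No gene of the sterol branch was called. All 7 mevalonate genes had a fold change above 0 with CGRP, with a median of 0.64 on the log2 scale, beside a median of 0.00 over all genes tested, and none was called. Acat2, the thiolase that starts the pathway, had 6.98, 3.35, 9.67 and 7.81 CPM in CGRP cultures, against 1.42, 3.27 and 3.04 CPM in base medium (log2 fold change 1.43 ± 0.47, adjusted p = 0.141). Of the 11 genes of the later steps 8 had a fold change above 0, with a median of 0.18, while Lss, Cyp51 and Dhcr7 lay below 0. Msmo1, a C4 demethylation enzyme, had 66.9, 28.1, 79.8 and 51.7 CPM in CGRP cultures, against 29.1, 29.9 and 40.9 CPM in base medium (log2 fold change 0.77 ± 0.29, adjusted p = 0.223). One CGRP library, replicate 2, lay below all base medium libraries for Msmo1, so those groups overlapped.

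**Figure D1:**
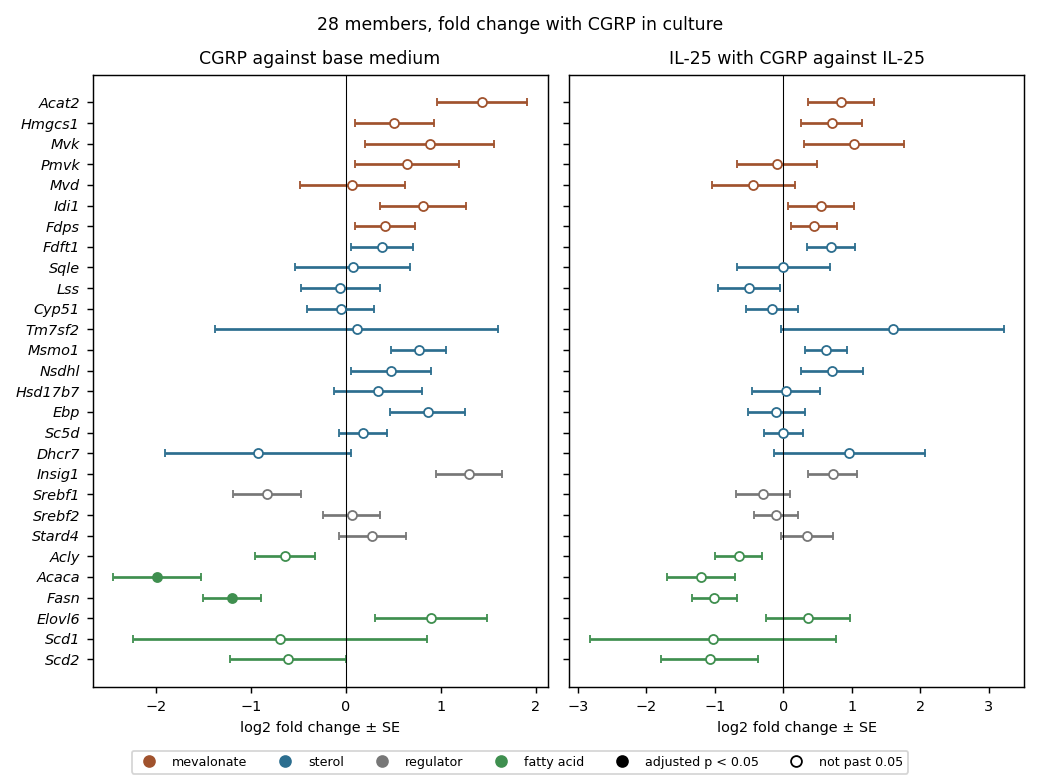
Log2 fold change (x axis, with its SE) of the 28 genes (y axis, coloured by role) for CGRP against base medium and for IL-25 with CGRP against IL-25, where filled points passed an adjusted p of 0.05. Acaca and Fasn are the only filled points, at −1.99 and −1.20 for CGRP against base medium, and both lie at −1.20 and −1.01 in the second panel, where nothing is filled.

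Among the regulators, Insig1, which holds SREBP in the endoplasmic reticulum, had 55.2, 40.6, 61.0 and 34.0 CPM in CGRP cultures, against 11.6, 27.8 and 19.3 CPM in base medium. The groups did not overlap, and the log2 fold change of 1.29 ± 0.35 missed the threshold (adjusted p = 0.0623). Insig1 passed the threshold in 4 of 13 fits that left out 1 library. Srebf1 had 19.5, 12.9, 24.0 and 9.64 CPM in CGRP cultures, against 32.4, 32.1 and 23.7 CPM in base medium (log2 fold change −0.83 ± 0.36, adjusted p = 0.316). Srebf2 and the sterol carrier Stard4 had log2 fold changes of 0.06 ± 0.30 and 0.28 ± 0.35.

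The same contrast in the presence of IL-25 used other libraries. Acaca had 3.16, 4.27 and 3.26 CPM with IL-25 and CGRP, against 7.72, 6.90 and 9.74 CPM with IL-25 alone (log2 fold change −1.20 ± 0.50, adjusted p = 0.362). Fasn had 16.1, 43.1 and 33.3 CPM with IL-25 and CGRP, against 75.9, 47.3 and 61.2 CPM with IL-25 alone (log2 fold change −1.01 ± 0.33, adjusted p = 0.198). Neither pair of groups overlapped, but 0 of the 28 genes were called by edgeR or DESeq2, and 2 had an unadjusted p under 0.05 in edgeR, while 0.631% of all genes were called. With 3 libraries per group genes can separate by chance, and the share of all genes without overlap was not counted. The summed fatty acid transcripts were 60.7 ± 17.9 CPM with IL-25 and CGRP and 105.0 ± 24.3 CPM with IL-25 alone (SD, n = 3 each). The interaction of both agents, which asks whether the CGRP effect differs with IL-25, called 0 of the 28 genes in edgeR and in DESeq2, with 0 at an unadjusted p under 0.05, and 0% of all genes. For Acaca the interaction term was 0.79 ± 0.68 and for Fasn 0.19 ± 0.45. When CGRP was compared over cultures with and without IL-25 together, a contrast chosen after the data were seen, Fasn (−1.10 ± 0.23, adjusted p = 0.00426) and Acaca (−1.59 ± 0.34, adjusted p = 0.00598) fell, and Insig1 (1.01 ± 0.25, adjusted p = 0.0176) and Acat2 (1.14 ± 0.34, adjusted p = 0.0490) rose. That contrast called 658 of all 12355 genes tested, while CGRP against base medium called 184, so more calls are found among all genes too.

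**Figure D2:**
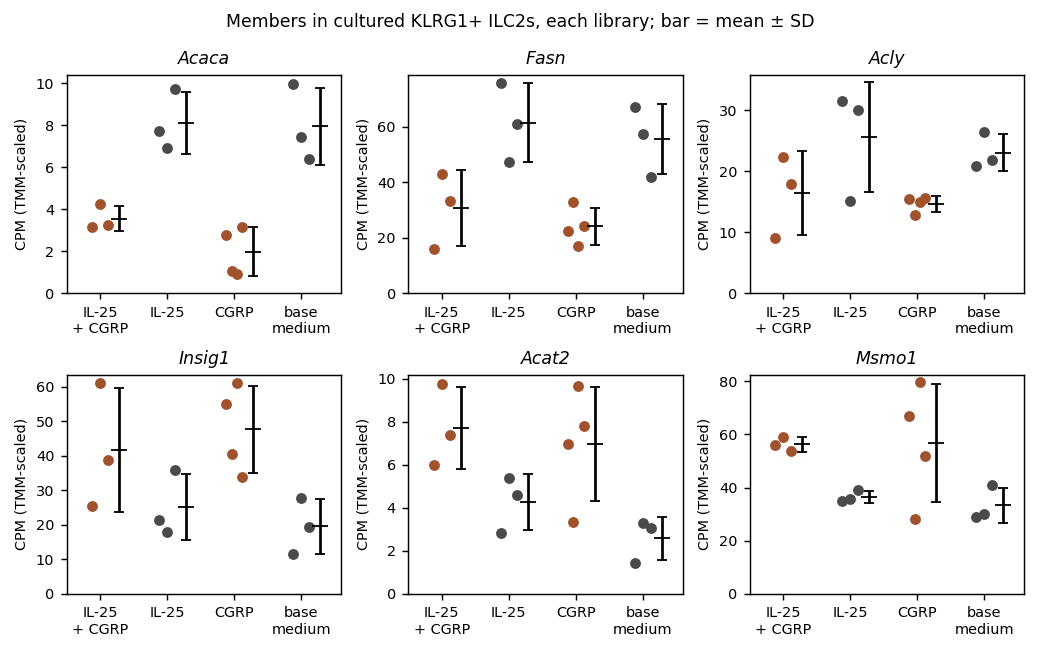
TMM-scaled CPM (y axis) of 6 genes in each cultured ILC2 library (points) by culture group (x axis), with mean and SD as bars. Acaca lies at 0.94 to 4.27 CPM in all libraries with CGRP and at 6.42 to 9.97 CPM in all libraries without it, and Fasn at 16.1 to 43.1 CPM with CGRP and at 42.1 to 75.9 CPM without it.

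IL-25 alone gave no calls. None of the 28 genes was called by edgeR or DESeq2 for IL-25 against base medium, 1 had an unadjusted p under 0.05 in edgeR, and 0.0728% of all genes were called. That gene was Sc5d, a late sterol desaturase, with 50.2, 82.9 and 54.1 CPM in IL-25 cultures, against 41.8, 38.2 and 43.0 CPM in base medium (log2 fold change 0.60 ± 0.27, adjusted p = 1.00). The comparison shares the base medium libraries with that of CGRP. IL-25 with CGRP against CGRP called 0 of the 28 genes in edgeR and DESeq2, with 0 at an unadjusted p under 0.05 and 0.113% of all genes called.

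Neighbouring pathways gave no calls with CGRP against base medium. Of the genes that process SREBP or feed back on it, 0 of 7 tested were called and the median log2 fold change was −0.30. Of the sterol efflux and storage genes 0 of 7 were called (median 0.31), of other lipid synthesis genes 0 of 11 (median 0.27) and of fatty acid oxidation genes 0 of 10 (median 0.40). The summed levels of the SREBP processing and feedback genes overlapped, at 72.0 to 107 CPM in CGRP cultures and 77.1 to 83.4 CPM in base medium. Those of the other lists nevertheless lay higher with CGRP, without overlap. Efflux and storage genes summed to 169 to 208 CPM in CGRP cultures and 123 to 157 CPM in base medium. Other lipid synthesis genes had 98.8 to 129 and 89.3 to 92.2 CPM. Oxidation genes had 221 to 292 and 172 to 218 CPM. With IL-25 and CGRP against IL-25, efflux sums were 171 to 196 and 118 to 156 CPM. Oxidation sums were 262 to 303 and 189 to 244 CPM, while other lipid synthesis and SREBP processing and feedback overlapped. Of the ILC2 markers 3 of 11 rose with CGRP, namely Areg, Il5 and Gata3, and their summed level was 2589 to 3541 CPM in CGRP cultures and 1177 to 1415 CPM in base medium. Epithelial markers summed to 27.3 to 40.0 CPM in CGRP cultures and 39.8 to 55.8 CPM in base medium. They summed to 22.8 to 37.6 CPM with IL-25 and CGRP and 50.0 to 77.1 CPM with IL-25. None of the 7 epithelial markers tested was called in either contrast in edgeR. Markers of mature dendritic cells summed to 121 to 148 CPM in CGRP cultures and 50.8 to 67.1 CPM in base medium, and to 80.3 to 120.5 CPM with IL-25 and CGRP and 44.3 to 63.2 CPM with IL-25. Monocyte markers summed to 140 to 241 CPM in CGRP cultures and 69.2 to 77.8 CPM in base medium, and to 122 to 231 CPM with IL-25 and CGRP and 65.5 to 109 CPM with IL-25. Of these, Socs2 (1 of 2 mature dendritic cell markers tested) and Plac8 (1 of 3 monocyte markers tested) rose with CGRP against base medium, and Plac8 rose also with IL-25 and CGRP against IL-25. The summed NK cell or ILC1 markers also lay higher without overlap in CGRP cultures than in base medium, and the summed cDC1 and stromal markers lower. The part of all these markers in the fatty acid gene result was not tested.

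Compared per kilobase of exon, so that genes can be set side by side, the most abundant mevalonate gene in base medium was Fdps, the farnesyl diphosphate synthase, at 6.52 ± 2.90 CPM per kb (SD, n = 3). Ebp and Sc5d led the later sterol steps at 8.54 ± 1.98 and 8.43 ± 0.51 CPM per kb and did not differ beyond their spread. Insig1 led the regulators at 6.32 ± 2.61 CPM per kb, and Fasn led the fatty acid genes at 5.08 ± 1.15 CPM per kb. None of these leads exceeded the spread, since Mvd (4.90 ± 2.55), Srebf1 (5.22 ± 0.88) and Acly (4.36 ± 0.57 CPM per kb) each lay above the leading gene of their role in 1 base medium library. In CGRP cultures these genes stood at 8.69 ± 2.48 (Fdps), 15.6 ± 10.8 (Ebp), 9.55 ± 2.12 (Sc5d), 15.4 ± 4.1 (Insig1) and 2.21 ± 0.60 (Fasn) CPM per kb (SD, n = 4).

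Across cell classes of control mice, plasmacytoid dendritic cell-like (pDC-like) cells had the highest mean summed level of the 28 genes in both tissues. Plasmacytoid dendritic cells are the main producers of type I interferon. Their sums were 1439, 1468 and 1208 CPM in food allergy and 1650, 1628 and 1248 CPM in control libraries of the lamina propria. In Peyer's patches the pDC-like sums ranged over run dates from 759 to 2015 CPM in food allergy and from 1034 to 1755 CPM in control mice, where the lowest food allergy sum came from 10 cells. Mature DC-like cells, dendritic cells that carry Ccr7, came next in control mice, at 1648 and 1121 CPM in the lamina propria and 1453, 683 and 960 CPM in Peyer's patches, so the ranges of both classes overlapped. Germinal centre B cell-like cells followed in control Peyer's patches, with 868 ± 36 CPM in food allergy (SD, n = 4 run dates) and 774 ± 155 CPM in control mice (n = 5), but in food allergy mast cell-like cells (1142 and 847 CPM) had the higher mean. In 4 single libraries or sums another class, of 10 to 16 cells, lay above the pDC-like cells. These were mature DC-like cells in the IgDLow food allergy library (1463 against 1215 CPM) and in control replicate 2 of the lamina propria (1648 against 1628 CPM), B cell-like cells in food allergy replicate 2 of the lamina propria (1603 against 1468 CPM) and germinal centre B cell-like cells in the food allergy sum of run date 1 (876 against 759 CPM). In control Peyer's patches, classes next to each other in this order overlapped in their ranges. These levels are a description, and no test was made between classes.

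**Figure D3:**
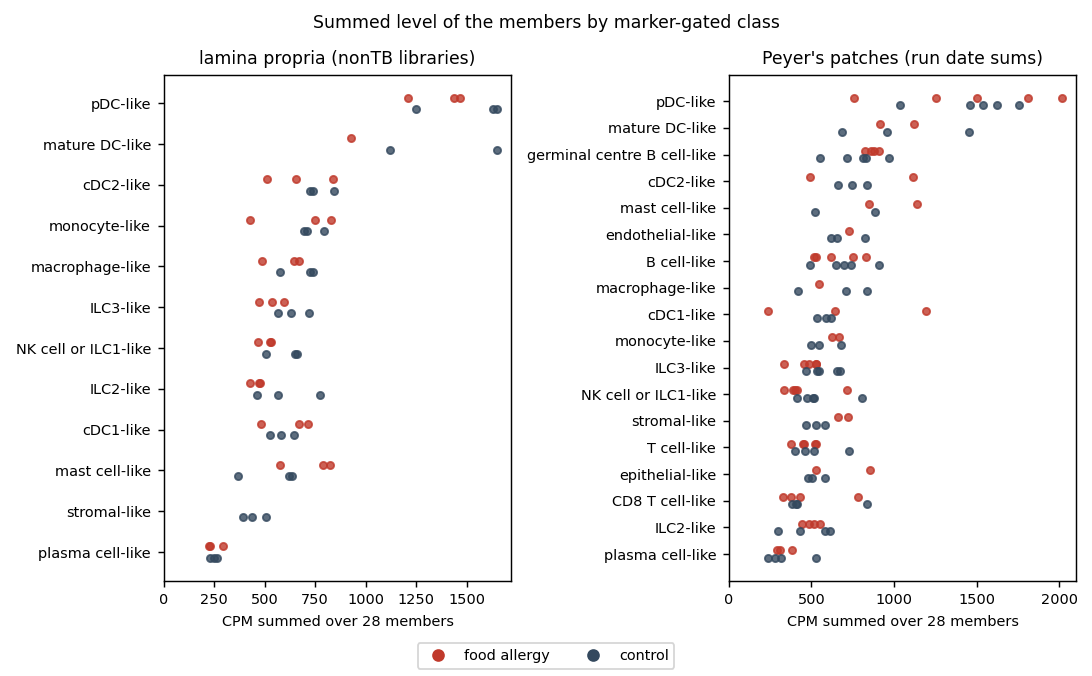
CPM summed over the 28 genes (x axis) in marker-gated classes (y axis, ordered by the control mean) for food allergy (red) and control (dark) samples, as points per library in the lamina propria and per run date in Peyer's patches. By the control mean the pDC-like cells stand at the top, with 1208 to 1650 CPM in the lamina propria, and plasma cell-like cells at the bottom with 222 to 294 CPM there.

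Plasma cell-like cells had the lowest sums, 248 ± 40 CPM in food allergy and 247 ± 16 CPM in control lamina propria libraries (SD, n = 3 each). Immunoglobulin transcripts took 65.3% of their UMIs in food allergy and 65.0% in control libraries. With these left out of the total, the sums were 721 CPM in food allergy and 709 CPM in control libraries, above the 464 and 605 CPM of ILC2-like cells and below the 1417 and 1537 CPM of pDC-like cells on the same scale. Per cell, plasma cell-like cells held 2.76 and 2.55 UMIs of the 28 genes, and pDC-like cells 4.78 and 5.29, in food allergy and control libraries.

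The pDC-like sums held more of the 7 mevalonate and the 11 later sterol genes than of the 6 fatty acid genes. This was not particular to them and sets unlike numbers of genes side by side. In control replicate 2 of the lamina propria the sums were 646, 557 and 110 CPM in pDC-like cells. They were 950, 423 and 80.1 CPM in mature DC-like and 180, 331 and 92.0 CPM in ILC2-like cells. Fdps had 256 to 281 CPM in food allergy and 172 to 288 CPM in control pDC-like cells of the lamina propria, and averaged 302 ± 174 CPM in food allergy and 253 ± 47 CPM in control run dates of Peyer's patches (SD, n = 5 each). The next class for Fdps in control mice was mature DC-like, at 123 ± 69 CPM in the lamina propria (n = 2) and 161 ± 64 CPM in Peyer's patches (n = 3). Msmo1 averaged 117 ± 3 CPM in food allergy and 115 ± 22 CPM in control pDC-like cells of the lamina propria. Idi1, the isopentenyl diphosphate isomerase, was instead highest in mature DC-like cells, at 230 ± 79 CPM in control lamina propria and 151 ± 91 CPM in control Peyer's patches, against 84.6 ± 13.2 and 98.8 ± 44.8 CPM in pDC-like cells.

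Of the 23 genes with a mean of at least 5 CPM over 12 control classes of the lamina propria, 7 were highest in pDC-like cells, beside 8.43% of the 9595 genes kept by the same rule, and 7 were highest in mature DC-like cells, beside 7.35%. In Peyer's patches 10 of 25 were highest in pDC-like cells among 18 classes, beside 5.75% of 10019 genes, and 3 in mature DC-like cells, beside 4.08%. Every control pDC-like library lay above every control library of all other classes for 2 of the 23 genes in the lamina propria, Fdps and Dhcr7, beside 3.04% of all genes kept, and for 0 of 25 in Peyer's patches, beside 1.04%. Classes of few cells have coarse values, since 1 UMI can be worth over 10 CPM in them.

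Fatty acid genes were spread over other classes. Scd1, the stearoyl-CoA desaturase that makes monounsaturated fatty acids (chromosome 19, 44394455 to 44407879), was highest in B cell-like cells of Peyer's patches, with germinal centre B cell-like cells next. It had 155, 248, 185, 103 and 321 CPM in B cell-like cells of food allergy run dates 1 to 5, against 113, 177, 182, 212 and 275 CPM in those of control mice. Germinal centre B cell-like cells averaged 57 ± 13 CPM of Scd1 in food allergy (SD, n = 4) and 43.5 ± 11.7 CPM in control mice (n = 5), so every B cell-like value lay above every germinal centre value. A Scd1 UMI was found in 48.0% of B cell-like cells in food allergy (95% Wilson interval 45.6% to 50.5%, median 2990 UMIs) and in 34.2% in control mice (32.3% to 36.3%, median 2653 UMIs). In T cell-like cells the shares were 1.05% (median 3088 UMIs) and 0.688% (median 2705 UMIs), a level that free RNA could give. Intervals cover counting error only. The shares pool cells over run dates in unlike mixes. Run date 1 gave 60 of 1612 B cell-like cells in food allergy and 912 of 2126 in control mice. The pooled shares therefore do not compare the conditions at equal dates. In the lamina propria the few B cell-like cells had 295, 744 and 282 CPM of Scd1 in food allergy libraries and 486 CPM in the only control library with enough cells. No allergy effect on Scd1 was called in either class of Peyer's patches.

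Scd2, another desaturase gene of the same family, had another distribution, with 47.3 CPM on average in control mast cell-like cells, 38.9 ± 17.3 CPM in control pDC-like cells and 28.6 ± 14.4 CPM in control endothelial-like cells of Peyer's patches, where Scd1 stayed low. Acly was highest in endothelial-like cells of control Peyer's patches at 212 ± 92 CPM (SD, n = 3), followed by stromal-like cells at 110 ± 28 CPM, and these ranges overlapped. In control mice Insig1 was highest in pDC-like cells in both tissues, and these cells held 119 ± 27 and 197 ± 23 CPM in food allergy and control lamina propria (n = 3 each) and 83.9 ± 32.7 and 85.6 ± 32.2 CPM in food allergy and control Peyer's patches (n = 5 each). Monocyte-like cells followed in control lamina propria at 149 ± 43 CPM, a range that overlapped with the pDC-like one, and in food allergy lamina propria they stood above pDC-like cells at 148 ± 71 CPM.

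**Figure D4:**
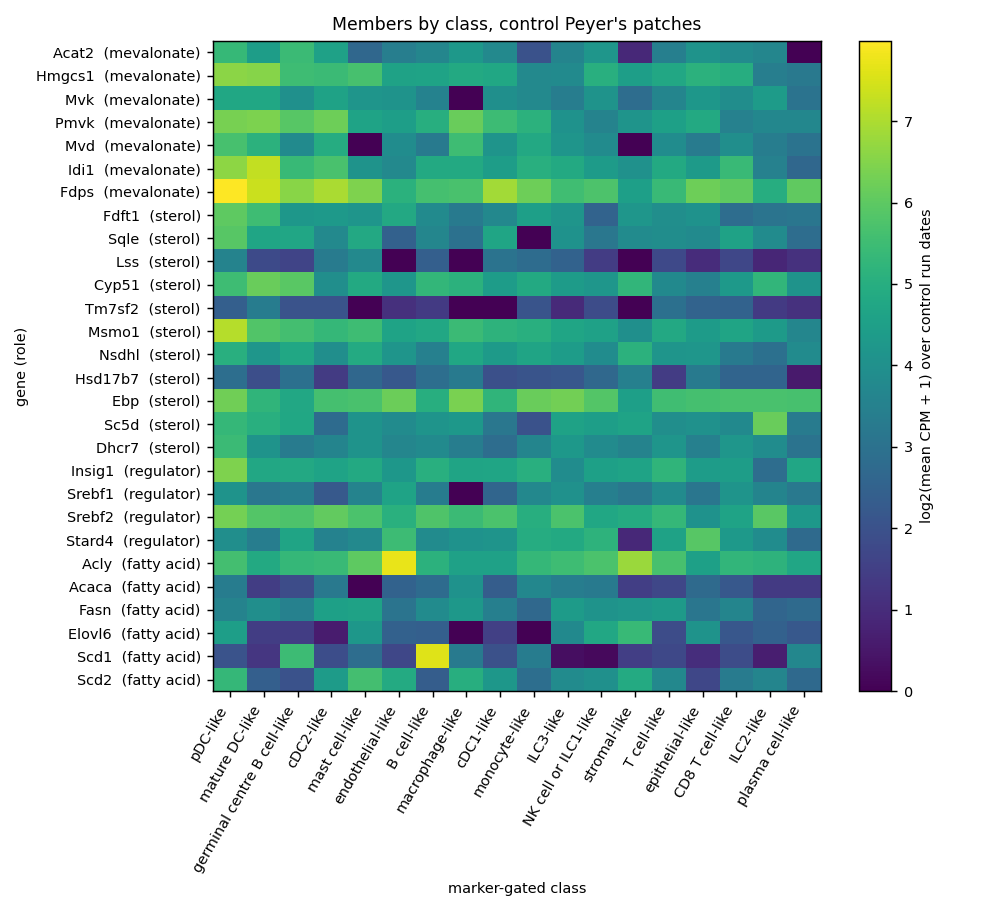
Mean level of each of the 28 genes (rows, with role) in the classes of control Peyer's patches (columns, ordered by summed level), as log2 of CPM plus 1 (colour). The brightest cells are Fdps in pDC-like cells (253 CPM), Acly in endothelial-like cells (212 CPM) and Scd1 in B cell-like cells (192 CPM).

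Food allergy moved few of the 28 genes. In the lamina propria, 133 tests over 10 classes gave 3 calls, all lower in food allergy, and 22 unadjusted p-values under 0.05, while 3.63% of 49769 gene tests over the same classes were called. Acaca and Scd1 passed the low-count filter in none of these classes. In Peyer's patches, 202 tests over 15 classes gave 1 call, higher in food allergy, and 13 unadjusted p-values under 0.05, while 0.636% of 79306 gene tests were called. The share called among the 28 genes was thus near the background in both tissues. For unadjusted p-values under 0.05 the share over all genes was not counted in any comparison, so those counts have no background beside them. The labels do not say that each library stands for its own mouse, so these p-values measure the spread between libraries or dates, which may be technical.

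In pDC-like cells of the lamina propria, Insig1 (chromosome 5, 28071363 to 28078662) fell in food allergy. It had 130, 139 and 88.4 CPM in food allergy libraries, against 220, 197 and 174 CPM in control libraries, so the groups did not overlap. The log2 fold change was −0.66 ± 0.12 and the adjusted p 0.00364 in edgeR's quasi-likelihood test, with 24 of the 28 genes tested and 2.39% of all genes called. Within run date 1 the 2 food allergy libraries lay below both control libraries, and within run date 2 the single food allergy library lay below the control library. Without a term for run date the call was lost (adjusted p = 0.0880). The SREBP targets Hmgcs1 (−0.52 ± 0.20, adjusted p = 0.239) and Sqle (−0.40 ± 0.19, adjusted p = 0.346) were not called, and the median over the 24 genes was −0.02. In Peyer's patches Insig1 had −0.26 ± 0.19 in pDC-like cells (adjusted p = 1.00), and the difference between the tissues was −0.38 ± 0.23 (adjusted p = 1.00). The single IgDLow libraries had 111 CPM in food allergy and 127 CPM in control pDC-like cells, with no replicate.

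Markers of other cells moved with the condition in these pDC-like libraries. The 10 mast cell markers summed to 45.3 to 1102 CPM in food allergy and 4.39 to 10.04 CPM in control libraries, where 5 of them were at 0. Plasma cell markers summed to 2935 to 6933 CPM in food allergy and 2222 to 5364 CPM in control libraries. The pDC markers summed to 10337 to 11154 CPM in food allergy and 10226 to 10821 CPM in control libraries. The part of the mast and plasma cell transcripts in the Insig1 result was not tested.

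In ILC2-like cells of the lamina propria, Fdps (chromosome 3, 89093588 to 89101959) fell in food allergy by 1.86 ± 0.58 on the log2 scale (adjusted p = 0.0328). It rested on 2, 5 and 3 UMIs, or 6.72, 12 and 9.48 CPM, in food allergy libraries, against 11, 18 and 1 UMIs, or 49.5, 66.2 and 4.58 CPM, in control libraries. The control library of run date 2 lay below all food allergy libraries, so the groups overlapped, and the difference comes from run date 1. In these cells 15.3% of 3938 genes were called, and 7 of the 28 genes passed the low-count filter. Without food allergy replicate 1 or replicate 2 the adjusted p was 0.177 and 0.145. The RNA quality genes summed to 52294 to 59908 CPM in food allergy and 47976 to 56248 CPM in control libraries, with 3 of 6 called higher, and mast cell markers summed to 177 to 383 CPM in food allergy and 29.4 to 64.1 CPM in control libraries, where 6 of 10 were at 0. Their part in the Fdps result was not tested.

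Stard4, which carries cholesterol between membranes, was higher in ILC2-like cells of food allergy mice. In Peyer's patches it had 44.0, 44.6, 40.4 and 53.8 CPM in food allergy run dates 2 to 5, against 23.5, 0, 23.5 and 8.26 CPM in control run dates 1, 2, 4 and 5. These values came from 12, 48, 157 and 286 cells in food allergy and from 30, 10, 132 and 192 cells in control mice. The control sum of run date 2 held 30187 UMIs of all genes, so its value of 0 is coarse. The groups did not overlap, and Stard4 rose by 1.77 ± 0.45 on the log2 scale (adjusted p = 0.00593), with 15 of the 28 genes tested and 2.22% of all genes called. Because the fit has a term for run date, this fold change comes from the 3 run dates with both conditions. Food allergy run date 3 and control run date 1 add nothing to it. The call was lost without the run date term (adjusted p = 0.206), with a stricter marker gate (0.387) and with cells of at least 1000 UMIs (0.298), and DESeq2 gave no adjusted p. It rested on run date 5, where 61 UMIs in food allergy stood against 5 in control cells, and without either sum of that date the log2 fold change was 0.89 or 0.86 and the adjusted p 0.988 or 0.955. In the lamina propria Stard4 had 53.7, 72.0 and 41.1 CPM in food allergy libraries, against 31.5, 40.5 and 27.5 CPM in control libraries (log2 fold change 0.91 ± 0.32, adjusted p = 0.0636). Those groups did not overlap, and the tissues' effects differed by −0.83 ± 0.58 (adjusted p = 0.827). The IgDLow libraries had 34.8 CPM in food allergy and 23.7 CPM in control ILC2-like cells. ILC2 markers summed to 3759 to 8850 CPM in food allergy and 1458 to 5344 CPM in control Peyer's patches, with 6 of 11 called higher (Areg, Arg1, Il4, Il13, Il5 and Ccl1), and RNA quality genes summed to 32552 to 42499 CPM in food allergy and 41210 to 53818 CPM in control sums. Their part in the Stard4 result was not tested.

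**Figure D5:**
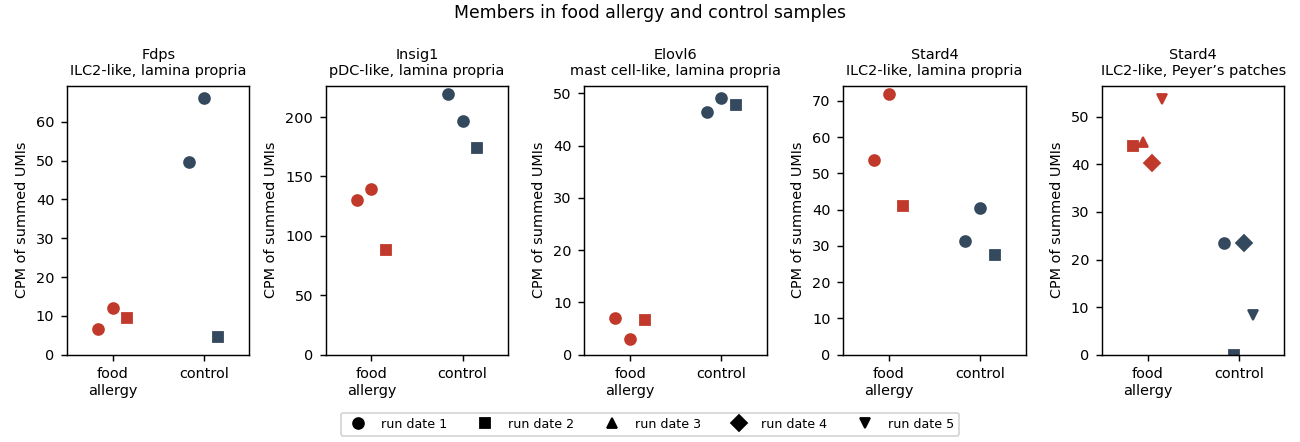
CPM of summed UMIs (y axis) of Fdps, Insig1, Elovl6 and Stard4 in the classes named above each panel, in food allergy and control samples (x axis), with a point per library in the lamina propria and per run date in Peyer's patches, and symbols for run date. Insig1 lies at 88.4 to 139 CPM in food allergy and 174 to 220 CPM in control libraries, whereas for Fdps 1 control library (4.58 CPM) lies below all food allergy libraries.

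In mast cell-like cells of the lamina propria, Elovl6 (chromosome 3, 129532355 to 129638495) fell by 2.73 ± 0.73 on the log2 scale (adjusted p = 0.0371). It had 7.10, 3.04 and 6.56 CPM in food allergy libraries, against 46.5, 49.1 and 47.7 CPM in control libraries, with no overlap. The control values rest on 3, 2 and 3 UMIs from 19, 12 and 23 cells, and the food allergy values on 7, 3 and 5 UMIs from 312, 260 and 186 cells. Leaving out any control library ended the call (adjusted p = 0.114 to 0.228). The median over the 14 genes tested was 1.03, beside 0.08 over all genes tested, and 3.85% of all genes were called. Msmo1 (2.50 ± 0.76, adjusted p = 0.0745) and Insig1 (1.86 ± 0.71, adjusted p = 0.181) were not called. Mast cell markers themselves summed to 65835 to 66727 CPM in food allergy and 20319 to 37253 CPM in control libraries, and 8 of 10 were called higher. In the IgDLow libraries Elovl6 had 3 UMIs (3.76 CPM) in food allergy and 1 UMI (10.7 CPM) in control mast cell-like cells.

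In the lamina propria, plasma cell-like cells gave no call in edgeR, where 3.72% of all genes were called, with 6 of 25 tested genes at an unadjusted p under 0.05. Fdps (0.38 ± 0.10, adjusted p = 0.0716), Ebp (0.49 ± 0.13, adjusted p = 0.0663) and Insig1 (−0.40 ± 0.10, adjusted p = 0.0664) came nearest, and all 3 passed with no low-count filter (adjusted p = 0.0405, 0.00458 and 0.0384) and none with DESeq2 (0.268, 0.153 and 0.232). All 10 cell cycle genes used to split dividing cells were called higher there, summing to 90.7 to 279 CPM in food allergy and 48.5 to 66.8 CPM in control libraries. Their part in the values above was not tested. The difference between the tissues' allergy effects was tested in 9 classes, where 0 of 143 tests over the 28 genes were called in edgeR, 13 had an unadjusted p under 0.05 and 0.165% of all gene tests were called.

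Dividing cells were set against non-dividing cells of the same class and unit. Germinal centre B cells divide fast while their antibodies are selected. Of 23 genes tested in germinal centre B cell-like cells of 7 run date and condition sums of Peyer's patches, 9 were higher and 3 lower in dividing cells. Of all 8500 genes tested 46.5% were called, 21% higher and 25.5% lower, so that calls are common among all genes here, and the difference between the shares was not tested. Dividing cells were also deeper, with a median of 10832 UMIs against 5120.5 in non-dividing cells.

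Of the mevalonate genes 4 of 7 rose in dividing cells and none fell. Idi1 ranged from 53.1 to 117 CPM in dividing sums (median 71.0) and from 6.05 to 37.7 CPM in non-dividing sums (median 24.5), with no overlap. It rose by 1.28 ± 0.13 on the log2 scale (adjusted p = 4.62e-22). Fdps ranged from 97.7 to 152 CPM in dividing sums (median 125) and from 51.6 to 100.5 CPM in non-dividing sums (median 76.7), higher in dividing cells in 7 of 7 units (log2 fold change 0.62 ± 0.09). Hmgcs1, which makes HMG-CoA, ranged from 28.5 to 70.4 CPM in dividing sums (median 57.9) and from 12.9 to 55.3 CPM in non-dividing sums (median 37.1), and rose by 0.51 ± 0.12, higher in 6 of 7 units. Acat2 ranged from 34.5 to 60.8 CPM in dividing sums (median 47.3) and from 25.8 to 62.8 CPM in non-dividing sums (median 35.8), and rose by 0.36 ± 0.12. Of the later sterol genes, Fdft1 (0.42 ± 0.18), Sqle (0.45 ± 0.14) and Cyp51 (0.35 ± 0.12) rose and Sc5d fell (−0.43 ± 0.13). Over 20 alternatives the call was lost in 6 for Fdft1, 4 for Sqle, 4 for Cyp51 and 2 for Sc5d. Fdft1 ranged from 16.3 to 34.5 CPM in dividing and from 0 to 36.3 CPM in non-dividing sums. Cyp51 ranged from 39.2 to 138 CPM in dividing and from 0 to 75.4 CPM in non-dividing sums, so both overlapped. Sqle ranged from 20.4 to 46.9 CPM in dividing sums (median 41.5) and from 6.45 to 46.4 CPM in non-dividing sums (median 27.7), and Sc5d from 11.5 to 46.9 CPM (median 33.8) in dividing and from 24.2 to 77.4 CPM (median 37.7) in non-dividing sums, with overlap for both. Of the regulators, Insig1 rose by 0.41 ± 0.16, higher in 7 of 7 units, though not without the food allergy sum of run date 3 (adjusted p = 0.111), and Srebf2 fell by 0.29 ± 0.11. Srebf2 ranged from 23.5 to 65.2 CPM in dividing and from 44.0 to 72.4 CPM in non-dividing sums, with overlap. Over 20 alternatives the call was lost in 7 for Srebf2, 2 for Insig1 and 1 for Acat2, and in 0 for Idi1, Fdps and Hmgcs1.

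The fatty acid genes split. Scd1 ranged from 23.5 to 36.6 CPM in dividing sums (median 34.5) and from 12.6 to 70.9 CPM in non-dividing sums (median 57.8), lower in dividing cells in 6 of 7 units, and fell by 0.78 ± 0.12. Fasn ranged from 0 to 18.3 CPM in dividing sums (median 11.5) and from 4.03 to 12.9 CPM in non-dividing sums (median 9.43) and was higher in dividing cells in 4 of 7 units, with a log2 fold change of 0.98 ± 0.27 that weights units by their counts (adjusted p = 0.000804). B cell markers fell together in dividing cells, 6 of 7 called, as did 5 of 6 RNA quality genes, and their part in these values was not tested. With cells of 5000 to 15000 UMIs only, a limit chosen after the data were seen, both classes together gave 5 calls, 4 higher and 1 lower.

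Plasma cell-like cells, of which 201 dividing and 3553 non-dividing cells entered 7 library pairs, 5 of the nonTB and 2 of the IgDLow fraction, had 1 gene higher and 2 lower among 25 tested, with 36.5% of all genes called. Idi1 rose by 0.94 ± 0.32 (adjusted p = 0.0151), with a median of 19.4 CPM in dividing and 4.22 CPM in non-dividing sums, and was higher in 5 of 7 units, 4 of 5 nonTB and 1 of 2 IgDLow. Idi1 ranged from 3.44 to 33.0 CPM in dividing and from 1.78 to 6 CPM in non-dividing sums, and its call was lost in 4 of 20 alternatives. Insig1 fell by 0.82 ± 0.15 and Fdft1 by 0.79 ± 0.25 on the TMM-scaled values. Fdft1 ranged from 5.21 to 24.1 CPM in dividing sums (median 11.1) and from 9.07 to 13.6 CPM in non-dividing sums (median 13). Of the plasma cell markers 8 of 9 fell in dividing cells, as did 6 of 6 RNA quality genes, and their part in these values was not tested. On unscaled CPM these directions do not hold, since Insig1 was higher in dividing sums in 4 of 7 units, with 29.5 to 55.1 CPM (median 44.9) in dividing and 28.2 to 52.2 CPM (median 35.4) in non-dividing sums. Immunoglobulin transcripts took 36.5% of the UMIs of dividing sums and 65.7% of those of non-dividing sums (medians). Among cells of 5000 to 15000 UMIs the value for Fdft1 turned to 0.32.

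To show the control regions of genes that moved in dividing germinal centre B cell-like cells, promoter sequences were read from RefSeq (GRCm38.p6, 250 bases before to 50 after the start, in the direction of transcription). Promoters were found for 22 of the 28 genes, as 27 sequences. Capitals mark matches to a sterol element (TCACNCCAC), an NF-Y box (CCAAT) or an Sp1 box (GGGCGG) on either strand. The 4 called genes with the smallest p for which a promoter was found are shown, Idi1, Hmgcs1 and Fasn, which rose, and Sc5d, which fell.
Idi1 promoter, chr13:8885356-8885655, plus strand: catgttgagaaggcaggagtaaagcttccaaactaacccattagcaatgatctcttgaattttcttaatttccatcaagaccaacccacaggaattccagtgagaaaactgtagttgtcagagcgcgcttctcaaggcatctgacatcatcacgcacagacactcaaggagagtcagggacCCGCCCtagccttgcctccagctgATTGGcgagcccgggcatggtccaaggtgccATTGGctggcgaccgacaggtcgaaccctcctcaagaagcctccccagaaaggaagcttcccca
Hmgcs1 promoter, chr13:119690101-119690400, plus strand: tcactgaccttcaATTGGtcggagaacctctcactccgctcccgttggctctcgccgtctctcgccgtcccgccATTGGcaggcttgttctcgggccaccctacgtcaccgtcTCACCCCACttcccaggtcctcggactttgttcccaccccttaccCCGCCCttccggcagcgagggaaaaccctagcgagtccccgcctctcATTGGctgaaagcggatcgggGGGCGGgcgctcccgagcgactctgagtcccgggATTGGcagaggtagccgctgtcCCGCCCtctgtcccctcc
Fasn promoter, chr11:120824498-120824797, minus strand: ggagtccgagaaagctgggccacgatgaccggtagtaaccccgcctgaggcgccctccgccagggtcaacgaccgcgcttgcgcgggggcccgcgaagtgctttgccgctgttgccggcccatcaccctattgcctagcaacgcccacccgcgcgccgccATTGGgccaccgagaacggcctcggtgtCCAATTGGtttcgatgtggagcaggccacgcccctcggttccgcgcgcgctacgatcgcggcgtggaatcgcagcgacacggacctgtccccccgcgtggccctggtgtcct
Sc5d promoter, chr9:42264251-42264550, minus strand: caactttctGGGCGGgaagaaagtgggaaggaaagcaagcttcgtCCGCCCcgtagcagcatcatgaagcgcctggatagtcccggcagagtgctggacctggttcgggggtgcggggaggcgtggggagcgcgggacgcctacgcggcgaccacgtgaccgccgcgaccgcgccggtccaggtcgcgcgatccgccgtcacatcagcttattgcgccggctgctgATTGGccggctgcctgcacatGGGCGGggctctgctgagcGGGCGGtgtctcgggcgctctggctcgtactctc
The sterol element was found in Hmgcs1 only, at position 114 of its 300 bases, and in 1.24% of all 32851 promoters. An NF-Y box was found in 20 of the 27 sequences, from 19 genes, and in 37.4% of all promoters. An Sp1 box was found in 20 of the 27, from 18 genes, and in 35.7% of all promoters. Hmgcs1 holds 4 NF-Y and 3 Sp1 boxes, Fasn 3 NF-Y boxes of which a pair overlaps, Idi1 2 NF-Y boxes and 1 Sp1 box, and Sc5d 1 NF-Y box and 4 Sp1 boxes. The window RefSeq gives for Acaca (84195188 to 84195487) lies inside the gene, downstream of the start given above, and does not show the promoter at that start. A match is a description of the letters and does not show binding.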

How the data were processed

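Bulk libraries of cultured ILC2s were sequenced after Smart-seq2, and single cells with a droplet method. The authors deposited expected counts per gene for the bulk libraries and raw UMI counts per cell for the single cells, and the submitters' processing notes name bcl2fastq, Bowtie2, RSEM, Cell Ranger and mm10, with versions not given in the sources used here. Expected counts were rounded to whole numbers. The 28 genes, the lists and the tests were chosen with earlier results of these data known.

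Cells were assigned by the detection likelihood of 138 marker genes (posterior of at least 0.95), a scoring rule set after the counts were seen. No doublet caller was run, and cells that did not reach 1 class stayed unassigned. UMIs were summed per class and library in the lamina propria, and per class, run date and condition in Peyer's patches, from at least 10 cells. Dividing cells had at least 3 of 10 cell cycle genes and non-dividing cells 0. Tests were edgeR 4.0.16 quasi-likelihood fits in R 4.3.3 with filterByExpr and TMM factors, with run date or unit as a term for single cells, and p-values were adjusted over all genes tested by the Benjamini-Hochberg method at 0.05. The SE is the fold change divided by the square root of F. The fits were also run on simulated counts with a fixed spread and no run date or unit effect, which does not show their error rate in these data. Bulk CPM are TMM-scaled, single-cell CPM are not. Gene positions and exon lengths are from GENCODE M21 (GRCm38). DESeq2 1.42.0, other scaling, filters, gates and depth limits, and leaving out each library or sum, were alternatives. Values in every sample, or the lowest, median and highest of groups over 5, are given for genes past the threshold (the 8 with the smallest p where there are more). They are also given for the leading gene of each role and for some, but not all, genes whose call an alternative changed. Depth is given with the data, and intervals cover counting error only. The share of all genes whose groups do not overlap was not counted for cultures or conditions. A lack of overlap there describes the values and adds nothing to the tests. One Peyer's patch food allergy sample had no cells in the matrix and was not analysed here.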

Additional observations from a re-analysis of the deposited data

Results flagged for a closer look

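A sample stood far from the others of its group in 4 of 48 groups tested, and chance flags about 1 in 20 groups. All were germinal centre B cell-like sums of Peyer's patches. For Scd1 the control sum of run date 3, from 64 cells, was highest at 63.3 CPM, and the next of 5 control sums had 41.2 CPM. For Scd1 in non-dividing cells the control sum of run date 5 was lowest at 12.6 CPM, which is 1 UMI from 18 cells, and the next of 7 sums had 52.1 CPM. For Cyp51 in dividing cells the control sum of run date 5, from 14 cells, was highest at 138 CPM, and the next of 7 had 77.4 CPM. For Srebf2 in non-dividing cells the control sum of run date 1, from 575 cells, was lowest at 44.0 CPM, and the next of 7 had 60.5 CPM.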

How the results depend on the processing

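The count of the 28 genes called for CGRP against base medium was 2, and it was 4 with DESeq2 and 4 with CGRP averaged over IL-25, and 0 to 4 when each library was left out. Averaged over IL-25, 658 of all 12355 genes were called, against 184 in the main contrast. The 3 calls of food allergy in the lamina propria became 5 with no low-count filter, 1 without the run date term, 5 with immunoglobulin genes left out of the totals and 1 to 6 when each library was left out. The single call in Peyer's patches, Stard4 in ILC2-like cells, became 0 with DESeq2 (no adjusted p), without the run date term, with the stricter marker gate and with cells of at least 1000 UMIs, 2 with each library as a unit, and 0 to 1 when each sum was left out. The 15 calls of dividing cells became 5 among cells of 5000 to 15000 UMIs and 11 to 17 when each sum was left out, and the fold change of Fdft1 in plasma cell-like cells turned to 0.32 in that depth window. The causes were not tested. The other 4 culture contrasts stayed at 0 calls in all alternatives run. Same-numbered culture libraries were no more alike than others: deviations from group means correlated at −0.19 to 0.20 in 18 same-numbered pairs and −0.29 to 0.26 in 45 others. The labels do not say what the numbers mark, and these correlations cannot show that the libraries were unpaired. With the replicate block 2 genes were called for CGRP against base medium, Acaca and Insig1 (adjusted p = 0.0309 and 0.0480), and Fasn was not (0.127). Few UMIs limit the rarer classes.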
